A study of Mus musculus with 7 samples.

Results

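The 10 genes described here encode proteins of the centrosome and its centrioles and are known from primary microcephaly and related disorders. They are *Aspm*, *Cdk5rap2*, *Cenpj*, *Mcph1*, *Wdr62*, *Stil*, *Cep152*, *Cep135*, *Sass6* and *Plk4*. They were chosen by name, as the rows of the count table whose Ensembl identifier carries one of these symbols, and all 10 were found among its 38124 genes. RNA-Seq was performed on 7 libraries of cells sorted for strong RFP fluorescence from E15.5 mouse neocortex, 48 hr after *in utero* electroporation at E13.5. All embryos carried *Tis21*-CreERT2, a tamoxifen-activated Cre recombinase expressed from the *Tis21* locus in apical radial glia that generate basal progenitors and in their progeny, and all received tamoxifen. The 3 control libraries (replicates 1, 2 and 4) came from neocortex electroporated with a floxed construct that turns on nuclear RFP after recombination, and the 4 libraries labelled Sox9 (replicates 1 to 4) from neocortex electroporated with the same kind of construct carrying Sox9 in addition. According to the methods, cortices of several embryos from several mothers were pooled in each experiment, so that a library is a pool of animals. The comparison was designed to ask how mRNA levels in these cells differ under added Sox9, and is reported here as one between the labelled groups.

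A centrosome is built around a pair of centrioles, which are copied once per cell cycle. Plk4 kinase starts the copying at a site prepared by Cep152, Stil and Sass6 form the cartwheel on which the new centriole grows, and Cenpj and Cep135 build and stabilise its microtubule wall. Cdk5rap2 recruits gamma-tubulin to the surrounding pericentriolar material, Aspm and Wdr62 act at the spindle poles of the mitotic cell, and Mcph1 holds back chromosome condensation and takes part in the DNA damage response. Loss of most of these genes leads to a small but otherwise well-formed brain, because neural progenitors divide poorly or are lost, and *Aspm* in particular is a textbook gene of cortical progenitors.

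Total counts ran from 4429704 to 12907778 a library, and replicate 4 of the Sox9-labelled group was the shallowest. *Sox9* mRNA itself had 31.0 to 50.8 CPM (counts scaled to library size by the TMM method) under that label against 34.6 to 89.2 in control, and so was no higher there. The group names therefore refer to the labels. By the methods, the construct carries the coding sequence of Sox9, and cDNA was primed with poly-dT. How far reads from the construct's transcript were counted under *Sox9* was not tested. The 9 neuron markers had a summed level of 13124 to 16192 CPM against 11825 to 13927 CPM (control first, here and below), and 0 of them was called by the test described below (4 had an unadjusted p under 0.05, all lower). Of 8 radial glia markers, *Slc1a3*, *Vim*, *Pax6* and *Fabp7* fell (summed level 551 to 1071 against 263 to 403 CPM). Of 5 intermediate progenitor markers, *Eomes* and *Btg2* fell (181 to 214 against 92.9 to 127 CPM). *Neurog1*, at 0.478 to 1.02 against 0.756 to 2.88 CPM, had a positive log2 fold change (1.15, adjusted p = 0.138 in the test described below). The other 4 of that list had negative ones. All 4 oligodendrocyte precursor markers rose, from a summed 0.509 to 1.13 to between 9.45 and 21.98 CPM. *Kdr* rose among 5 endothelial and mural markers tested (summed level of 6 listed, 5.73 to 14.4 against 15.8 to 27.7 CPM). *Col1a1* rose among 3 meningeal markers tested (summed level of 4 listed, 1.48 to 3.92 against 6.05 to 14.1 CPM). Log2 fold changes of the 5 endothelial and mural markers ran from -1.03 to 2.11, 1 of them negative, and those of the 3 meningeal markers were all positive. None of 5 microglia markers passed the edgeR test, and 0 had an unadjusted p under 0.05 (7.93 to 26.8 against 11.1 to 42.3 CPM). No marker was at 0 in all libraries. The part of these differences in the results below was not tested.

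Levels of different genes were compared per kilobase of exon, on the scale of CPM per kb. This takes all counts as exonic, which the sources used here do not state. In control cells *Cenpj* (11.4 ± 0.737, SD, n = 3) and *Sass6* (10.7 ± 0.854) were the highest of the 10 and overlapped each other. *Stil* (3.05 ± 0.810) and *Cdk5rap2* (2.16 ± 0.258) followed and also overlapped each other. *Cep152* stood at 1.67 ± 0.188, below every value of *Cdk5rap2* and above every value of *Wdr62*. *Wdr62* (1.42 ± 0.0277), *Mcph1* (1.40 ± 0.366), *Plk4* (1.33 ± 0.548) and *Aspm* (1.19 ± 0.0973) followed, each overlapping the one before it except *Wdr62*. *Cep135* was the lowest, at 0.598 ± 0.0486, and lay below every value of *Aspm*. In the libraries labelled Sox9 the order began in the same way, with *Cenpj* at 8.56 ± 1.26 and *Sass6* at 8.23 ± 0.238 (SD, n = 4), but ended with *Aspm* at 0.659 ± 0.299, which overlapped *Plk4* at 0.792 ± 0.143, while *Cep135* stood eighth at 1.14 ± 0.135. The mRNAs at the top in both groups were those of the cartwheel protein Sass6 and of Cenpj, which builds the wall.

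**Figure D1:**
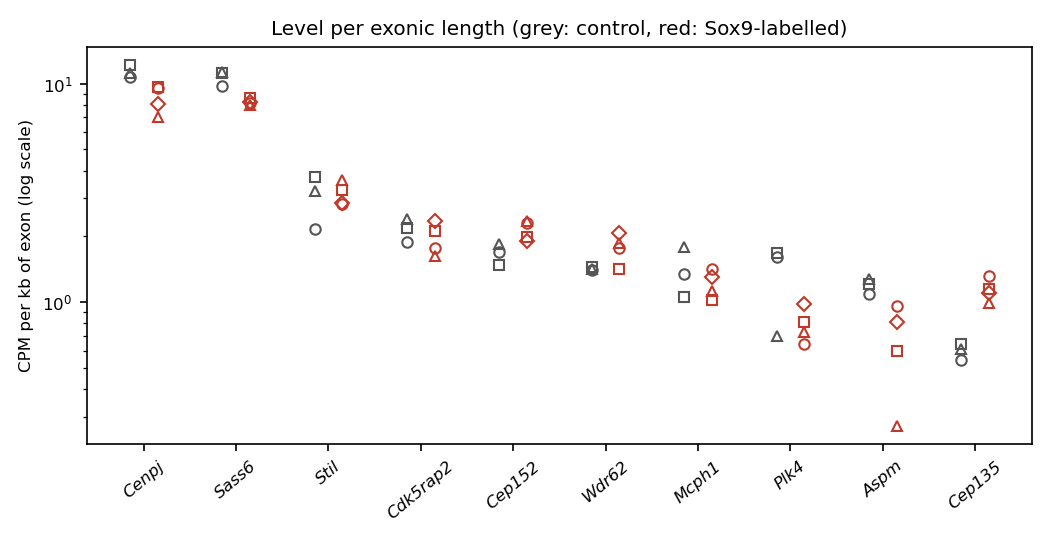
Level of each of the 10 genes in each library, in CPM per kilobase of exon on a log axis, with control libraries in grey and libraries labelled Sox9 in red (circle replicate 1, square replicate 2, diamond replicate 3, triangle replicate 4). *Cenpj* and *Sass6* lie above the other 8 genes in every library, and *Cep135* moves from last place in control to eighth.

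None of the 10 genes was called differentially expressed between the groups. The test was edgeR's quasi-likelihood test (two-sided) over the 16522 genes that passed its filter on low counts, with a call at a Benjamini-Hochberg adjusted p under 0.01, and all 10 genes passed the filter. It called 14.7% of all tested genes, 3.43% lower and 11.3% higher in the libraries labelled Sox9. At an unadjusted p under 0.05, 4 of the 10 were lower and 1 was higher, where that threshold took 17.3% of all genes as lower, 26.8% as higher and 44.0% in all. The 5 of 10 genes at that threshold are a share close to that of all genes. Log2 fold changes ran from -0.83 for *Aspm* to 0.93 for *Cep135*, with a median of -0.16 against -0.0031 over all tested genes, and 6 of the 10 were negative. The control libraries all lay above the libraries labelled Sox9 for 3 genes (*Aspm*, *Cenpj* and *Sass6*; 16.4% of all genes) and all lay below them for 2 (*Cep152* and *Cep135*; 22.9% of all genes). The remaining 5 overlapped, and over all genes the groups did not overlap for 39.3%. In such bulk samples, fewer cells of a type and less RNA per cell cannot be told apart.

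**Figure D2:**
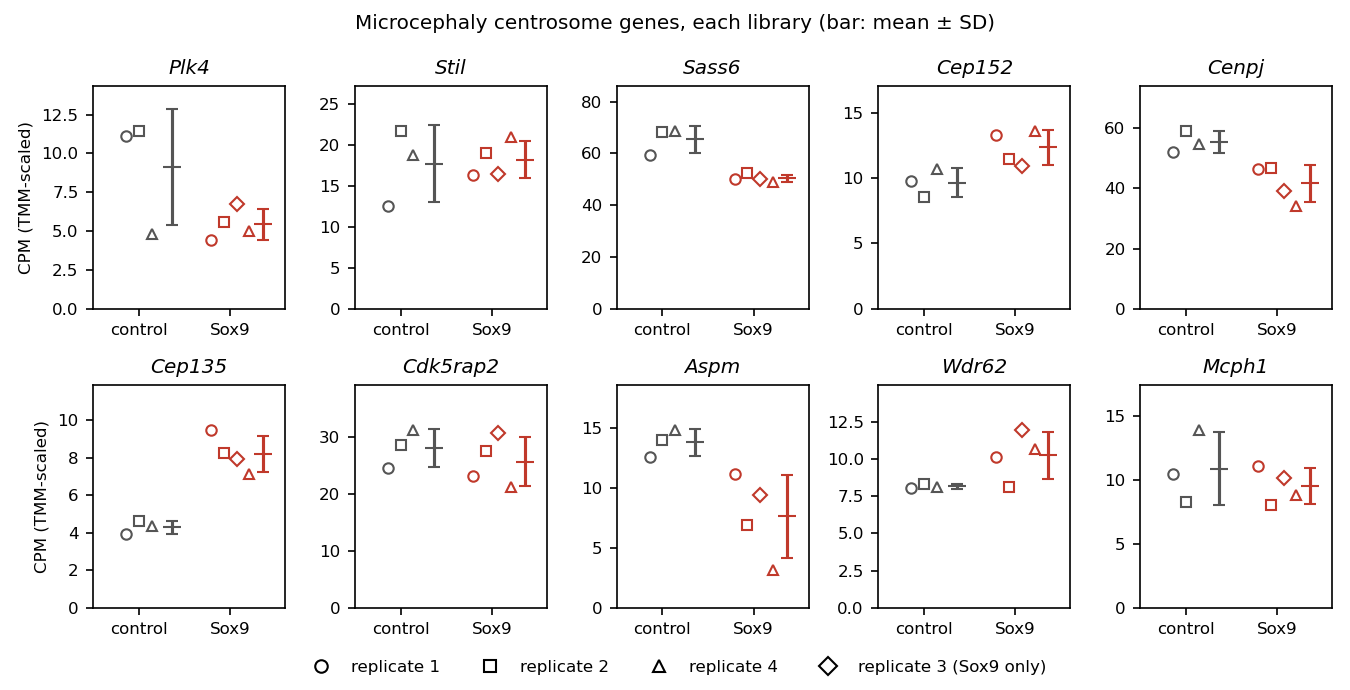
CPM of each gene in each library (symbols by replicate number), with the mean and SD of each group as a bar beside the points. The groups separate for *Sass6*, *Cenpj*, *Aspm*, *Cep152* and *Cep135* and overlap for the other 5 genes.

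The stretch before the transcription start is shown for *Aspm*, *Plk4* and *Cep135*, whose log2 fold changes were the largest in size of the 10, and for *Top2a*, the proliferation marker with the smallest p. The sequences are RefSeq's (GRCm38.p6) and run 5′ to 3′ on the strand of the gene, from base 250 to base 2 before the start. Each is chr1:139454523-139454771 (forward) for *Aspm*, chr3:40799701-40799949 (forward) for *Plk4*, chr5:76588449-76588697 (forward) for *Cep135* and chr11:99024191-99024439 (reverse) for *Top2a*. Capitals mark matches on either strand to the CHR element TTTGAA, the CCAAT box CCAAT and the E2F core GGCGGGA, elements known from promoters of cell cycle genes. No exon of the annotation lies in these windows.
Aspm: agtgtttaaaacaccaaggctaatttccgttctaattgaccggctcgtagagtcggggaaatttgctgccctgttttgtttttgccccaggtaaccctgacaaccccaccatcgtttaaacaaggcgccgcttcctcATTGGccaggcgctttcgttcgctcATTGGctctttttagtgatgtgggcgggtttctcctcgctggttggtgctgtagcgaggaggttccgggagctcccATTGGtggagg
Plk4: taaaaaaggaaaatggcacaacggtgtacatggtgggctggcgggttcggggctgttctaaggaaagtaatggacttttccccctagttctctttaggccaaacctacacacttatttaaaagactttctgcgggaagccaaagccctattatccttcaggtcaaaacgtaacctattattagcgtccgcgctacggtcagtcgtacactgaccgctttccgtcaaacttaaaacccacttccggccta
Cep135: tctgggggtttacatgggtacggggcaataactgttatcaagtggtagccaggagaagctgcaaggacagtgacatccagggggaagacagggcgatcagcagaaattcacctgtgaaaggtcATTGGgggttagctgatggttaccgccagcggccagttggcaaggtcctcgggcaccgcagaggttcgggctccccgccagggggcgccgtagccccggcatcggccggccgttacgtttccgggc
Top2a: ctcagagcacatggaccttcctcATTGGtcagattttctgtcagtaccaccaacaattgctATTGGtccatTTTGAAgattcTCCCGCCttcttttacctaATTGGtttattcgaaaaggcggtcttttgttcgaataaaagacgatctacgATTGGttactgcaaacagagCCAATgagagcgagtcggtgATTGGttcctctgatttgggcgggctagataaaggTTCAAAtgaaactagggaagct

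*Top2a* held 2 CHR, 6 CCAAT and 1 E2F match, *Aspm* 3 CCAAT matches on the reverse strand, *Cep135* 1 CCAAT match and *Plk4* 0 matches to any of the 3. RefSeq entries were found for 9 of the 10 genes, all but *Mcph1*. Over the 250 bases before the start, 5 of the 9 held a CCAAT box (*Aspm*, *Wdr62*, *Stil*, *Cep152* and *Cep135*), against 33.9% of 32851 promoters in the table. *Sass6* was the 1 of 9 with a CHR element (16.0% of all promoters), at bases 159 to 154 before its start, and *Cep152* the 1 of 9 with the E2F core (9.75%). Of 4 proliferation markers with an entry, 3 held a CHR element, 4 a CCAAT box and 1 the E2F core. Of 19 spindle pole and mitotic centrosome genes with an entry, 4, 11 and 4 did. *Pcna* and *Plk1*, which both fell, held 1 CCAAT match each and 0 CHR or E2F matches. No 2 of the 3 elements overlapped in the sequences shown. These matches are letters in a window and show no binding.

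*Plk4* (ENSMUSG00000025758) is a forward-strand gene on chromosome 3 (40800019 to 40816883, mm10, as for all positions here). Its kinase sets how many centrioles form, since too much of it gives extra copies. Control libraries had 11.1, 11.5 and 4.78 CPM, from 116, 132 and 47 counts. The libraries labelled Sox9 had 4.40, 5.58, 6.71 and 5.03 CPM, from 24 to 60 counts. Control replicate 4 lay among the libraries labelled Sox9, while the other two controls were above all of them. The log2 fold change was -0.74 ± 0.32 (SE; adjusted p = 0.0862). It was -1.03 (adjusted p = 0.0198) without control replicate 4 and -0.52 (adjusted p = 0.299) without control replicate 2, and -0.42 to -0.36 with limma on FPKM, with no call in any of these.

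*Cep152* (ENSMUSG00000068394, chromosome 2, 125563088 to 125625113, reverse strand), the scaffold that brings Plk4 to the parent centriole, had 9.75, 8.52 and 10.7 CPM in control and 13.3, 11.4, 11.0 and 13.6 CPM in the libraries labelled Sox9. All 4 were above all 3 controls, by a narrow margin, and the log2 fold change was 0.35 ± 0.22 (SE; adjusted p = 0.227). *Stil* (ENSMUSG00000028718, chromosome 4, 115000159 to 115043196, forward strand), which is phosphorylated by Plk4 and then binds Sass6, had 12.5, 21.7 and 18.7 CPM in control and 16.3, 19.0, 16.4 and 21.0 CPM in the libraries labelled Sox9. Its groups overlapped over most of their range, with a log2 fold change of 0.037 ± 0.21 (SE; adjusted p = 0.910).

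*Sass6* (ENSMUSG00000027959, chromosome 3, 116594982 to 116631004, forward strand), whose protein forms the hub of the cartwheel, was the gene with the most counts of the 10. Control libraries had 59.5, 68.3 and 68.9 CPM, and the libraries labelled Sox9 had 49.995, 52.35, 50.2 and 48.9 CPM. Each of the latter lay below each control, and they were close to one another. The log2 fold change was -0.38 ± 0.13 (SE; adjusted p = 0.0321). DESeq2, the tool named in the methods, placed *Sass6* just inside the threshold, with a log2 fold change of -0.46 and an adjusted p of 0.00992. It was the 1 of the 10 genes that DESeq2 called, and DESeq2 called 5.65% of all genes lower and 8.75% higher. The median of all genes moved by -0.082 between edgeR and DESeq2, which is about the move of *Sass6*. It was also larger in size with no filter on low counts (-0.47, adjusted p = 0.0225) and without control replicate 1 (-0.46, adjusted p = 0.0314), and smaller in others, -0.16 (adjusted p = 0.446) with cyclic loess and limma-trend, -0.24 (adjusted p = 0.223) with at least 10 counts in every library, where the median of all genes moved by 0.14, and -0.15 to -0.14 with limma on FPKM. On the opposite strand, the exons of *Sass6* share 1502 bases with the antisense gene *Gm42893*, for which no counts were analysed here, and 389 bases with *Trmt13*, which had 1273 counts over all libraries against 3686 for *Sass6*. Whether reads were counted by strand is not given in the sources used here.

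*Cenpj* (ENSMUSG00000064128, chromosome 14, 56526761 to 56575425, reverse strand), also called Cpap, adds tubulin to the growing centriole. It had 52.2, 59.3 and 54.6 CPM in control and 46.6, 46.9, 39.2 and 34.2 CPM in the libraries labelled Sox9. The groups did not overlap, and the log2 fold change was -0.40 ± 0.15 (SE; adjusted p = 0.0478). It was -0.27 (adjusted p = 0.181) without replicate 4 of the libraries labelled Sox9, -0.21 (adjusted p = 0.402) with cyclic loess and limma-trend, -0.27 with at least 10 counts in every library and -0.19 to -0.17 with limma on FPKM. *Cep135* (ENSMUSG00000036403, chromosome 5, 76588698 to 76646466, forward strand), which links the cartwheel to the microtubule wall, differed in the other direction.

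*Cep135* had 3.92, 4.61 and 4.37 CPM in control, from 41 to 53 counts, and 9.48, 8.22, 7.94 and 7.13 CPM in the libraries labelled Sox9, from 34 to 87 counts. The lowest library labelled Sox9 was well above the highest control. The means were 4.30 ± 0.349 (SD, n = 3) and 8.19 ± 0.974 (SD, n = 4) CPM, which gives a log2 fold change of 0.93 ± 0.26 (SE). This was the smallest p of the 10 genes, and the adjusted p of 0.0166 missed the threshold. The median log2 fold change went with expression, being 1.55 in the lowest quintile of genes by mean expression and -0.26 in the highest. The part of this trend in the value of *Cep135* was not tested. By mean expression, 7 of the 10 genes, *Cep135* among them, belonged to the middle quintile of all tested genes, where the median log2 fold change was -0.023 and 8.87% of genes were called higher. The other 3 (*Sass6*, *Cenpj* and *Cdk5rap2*) belonged to the next quintile up, where the median was -0.18 and 1.09% were called higher. *Cep135* had an average log2 CPM of 2.74, in the lower part of the middle quintile (2.45 to 4.21). In the quintile below the middle one, the median log2 fold change was 0.87 and 25.2% of genes were called higher. With cyclic loess normalization and limma-trend in place of TMM and edgeR, a change of both normalization and test, the log2 fold change of *Cep135* was 0.66 (adjusted p = 0.0960).

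*Cdk5rap2* (ENSMUSG00000039298, chromosome 4, 70216856 to 70410443, reverse strand) had 24.6, 28.5 and 31.2 CPM in control and 23.1, 27.6, 30.7 and 21.2 CPM in the libraries labelled Sox9. Both groups covered nearly the same range, and the log2 fold change was -0.12 ± 0.18 (SE; adjusted p = 0.627). *Cdk5rap2* shares 365 exonic bases with the pseudogene *Ywhaq-ps3*, which had 29 counts over all libraries against 1728 for *Cdk5rap2*.

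*Aspm* (ENSMUSG00000033952, chromosome 1, 139454772 to 139494091, forward strand) encodes the protein most often affected in primary microcephaly, which focuses microtubules at the spindle pole. Control libraries had 12.6, 13.99 and 14.9 CPM, from 132 to 161 counts. The libraries labelled Sox9 had 11.1, 6.90, 9.39 and 3.15 CPM, from 81, 73, 84 and 15 counts. They were all below the controls, spread widely, and replicate 4, the shallowest library, was the lowest. The means were 13.8 ± 1.13 (SD, n = 3) and 7.64 ± 3.46 (SD, n = 4) CPM, a ratio of 0.553. The log2 fold change of -0.83 ± 0.31 (SE) had an adjusted p of 0.0505. It was -0.55 (adjusted p = 0.115) without replicate 4 of the libraries labelled Sox9, and -0.92 (adjusted p = 0.00446) with no filter on low counts, where *Aspm* was the 1 of the 10 genes called and 4.47% of genes were called lower and 8.19% higher. The median of all genes moved by -0.087 in that setting.

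*Wdr62* (ENSMUSG00000037020, chromosome 7, 30240138 to 30280419, reverse strand), a partner of Aspm at the spindle pole, had 8.03, 8.34 and 8.14 CPM in control and 10.2, 8.13, 12.0 and 10.7 CPM in the libraries labelled Sox9. The controls lay within a narrow band into which replicate 2 of the other group fell, and the log2 fold change was 0.32 ± 0.23 (SE; adjusted p = 0.305). Its exons share 264 bases with *Thap8* on the opposite strand, which had 5 counts over all libraries against 578 for *Wdr62*. *Mcph1* (ENSMUSG00000039842, chromosome 8, 18595131 to 18803189, forward strand), better known for its role on chromosomes than for one in centriole copying, had 10.5, 8.25 and 13.9 CPM in control and 11.1, 8.03, 10.2 and 8.81 CPM in the libraries labelled Sox9. The groups overlapped throughout, with a log2 fold change of -0.19 ± 0.25 (SE; adjusted p = 0.585). The antisense gene *Gm16725* shares 190 exonic bases with *Mcph1* and had 18 counts over all libraries against 641 for *Mcph1*. *Angpt2*, an endothelial gene with 337 counts, lies within the span of *Mcph1* on the opposite strand and shares no exonic base with it.

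The other genes of the pathway were measured with lists of 118 genes, none of them among the 10, and all 118 were tested. Of these, 22 fell (18.6%), 1 rose, and 95 did not pass the test, with a median log2 fold change of -0.28. The count that fell was 32 with DESeq2 (5.65% of all genes fell), 35 with no filter on low counts (4.47%), 41 at an adjusted p under 0.05 (10.8%), 13 without control replicate 2 (1.20%), 12 with cyclic loess and limma-trend (1.72%), 12 with at least 10 counts in every library (1.77%) and 0 to 7 with limma on FPKM (0.0477 to 0.582%). Over all tested genes 3.43% fell and 11.3% rose, and in the 3 upper quintiles by mean expression, where most listed genes lay, 3.24, 5.05 and 8.02% fell. Among 25 spindle pole and mitotic centrosome genes, 10 fell and 0 rose, the median was -0.64, and all 25 log2 fold changes were negative (16 with an unadjusted p under 0.05). The lowest p belonged to *Plk1*, the kinase that matures the mitotic centrosome, which had 28.6 ± 8.02 CPM (SD, n = 3) in control against 3.63 ± 1.51 CPM (SD, n = 4) and a log2 fold change of -2.93. *Kif11*, the motor that pushes the poles apart, fell by 2.32 on the log2 scale and *Tpx2*, which activates Aurora A on the spindle, by 2.24. Of 5 genes of the condensin complexes, which compact the chromosomes, *Ncapg*, *Smc4* and *Smc2* fell (log2 fold changes -2.17, -1.28 and -1.09). *Ncapg2* and *Ncaph2*, subunits of condensin II, the complex that Mcph1 restrains, did not pass (-0.92 and -0.35, adjusted p = 0.0106 and 0.0379).

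Of 18 other primary microcephaly genes, 7 fell and 0 rose, with a median of -0.34, where 3.43% of all tested genes fell and 11.3% rose. *Cenpe*, a kinetochore motor, had a log2 fold change of -1.79, and the condensin subunits *Ncaph* and *Ncapd2* had -1.58 and -0.74. The other 4 that fell were *Cdk6*, *Knl1*, *Nup37* and *Cit*.

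Of 30 other centriole assembly genes, 0 fell in the edgeR test (9 had an unadjusted p under 0.05 and a negative log2 fold change) and 1 rose, with a median of -0.24. The gene that rose was *Sfi1*, which encodes a centrin-binding protein and had 42.8 ± 2.56 CPM (SD, n = 3) in control against 113 ± 15.5 CPM (SD, n = 4), with a log2 fold change of 1.41 ± 0.14 (SE; adjusted p = 3.99e-05). *C2cd3* and *Cep63* had the next smallest p, with log2 fold changes of -0.46 and -0.48 that did not pass. Of 31 pericentriolar material and linker genes, *Tubg1* (log2 fold change -0.55) and *Nedd1* (-1.02), which encode gamma-tubulin and the factor that anchors its ring complex, fell and 0 rose, with a median of -0.21. *Tubgcp2*, next by p, had -0.40 (adjusted p = 0.0120). Of 9 genes of the pathway that senses centrosome loss, 0 passed the edgeR test (3 with an unadjusted p under 0.05). In that list *Pidd1* had a log2 fold change of -0.80 (adjusted p = 0.0103), *Trp53* -0.45 (adjusted p = 0.0219) and *Cradd* 0.55 (adjusted p = 0.104). Over all tested genes, 3.43% fell and 11.3% rose. Whether the lists, chosen with earlier results of these data known, differ from one another was not tested.

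**Figure D3:**
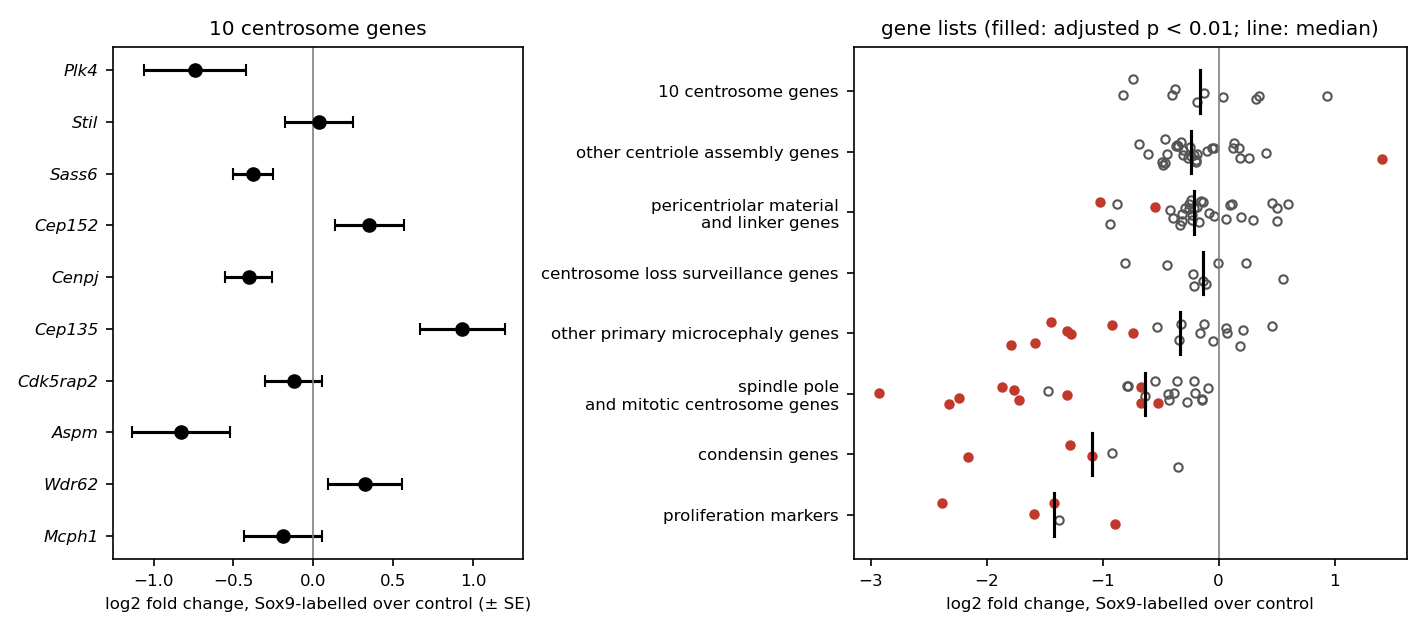
Log2 fold changes of the 10 genes with their standard errors (left) and of every tested gene in them and in 7 other lists (right), with genes at an adjusted p under 0.01 filled and list medians as lines. The 10 genes lie between -0.83 and 0.93 with none filled, and the filled genes at the far left belong to the spindle pole, condensin, microcephaly and proliferation lists.

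The 5 proliferation markers were measured in the same libraries, though the number of cycling cells was not. *Top2a* had 215 ± 73.0 CPM (SD, n = 3) in control against 41.1 ± 4.08 CPM (SD, n = 4) (log2 fold change -2.39), *Mcm2* had a log2 fold change of -1.42, *Mki67* of -1.60 and *Pcna* of -0.89, and all 4 fell. *Ccna2* (-1.38, adjusted p = 0.0140) did not pass. The 5 markers together had 336 to 542 CPM in control and 125 to 148 CPM under the Sox9 label. Over the same libraries the summed level of the 10 centrosome genes went from between 205 and 233 CPM to between 174 and 196.

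Each gene was therefore also expressed as a percentage of the summed marker level in the same library, a ratio that does not depend on how libraries are scaled. For 8 of the 10 genes this percentage was higher in every library labelled Sox9 than in every control. The same held for 90.6% of all tested genes, a share close to that of the 10 genes, so nothing is read from it about them. *Cep135* moved most, from between 0.850 and 1.17% to between 4.82 and 6.89%, a ratio of means of 5.83. *Wdr62* and *Cep152* both had ratios of 3.80, *Stil* 3.22, *Cdk5rap2* 2.80, *Mcph1* 2.60, *Sass6* 2.34 and *Cenpj* 2.30. The 2 genes whose groups overlapped were *Aspm* and *Plk4*. *Aspm* had 3.75, 2.58 and 3.65% in control and 8.08, 5.01, 7.49 and 2.13% under the Sox9 label, where replicate 4 lay below every control. *Plk4* had 3.30, 2.12 and 1.18% in control and 3.19, 4.05, 5.35 and 3.40% under the Sox9 label, a ratio of 1.82 against 1.71 for *Aspm*. Among all tested genes, 0.242% were lower than every control on this scale in every library labelled Sox9, and none of the 10 was among them.

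**Figure D4:**
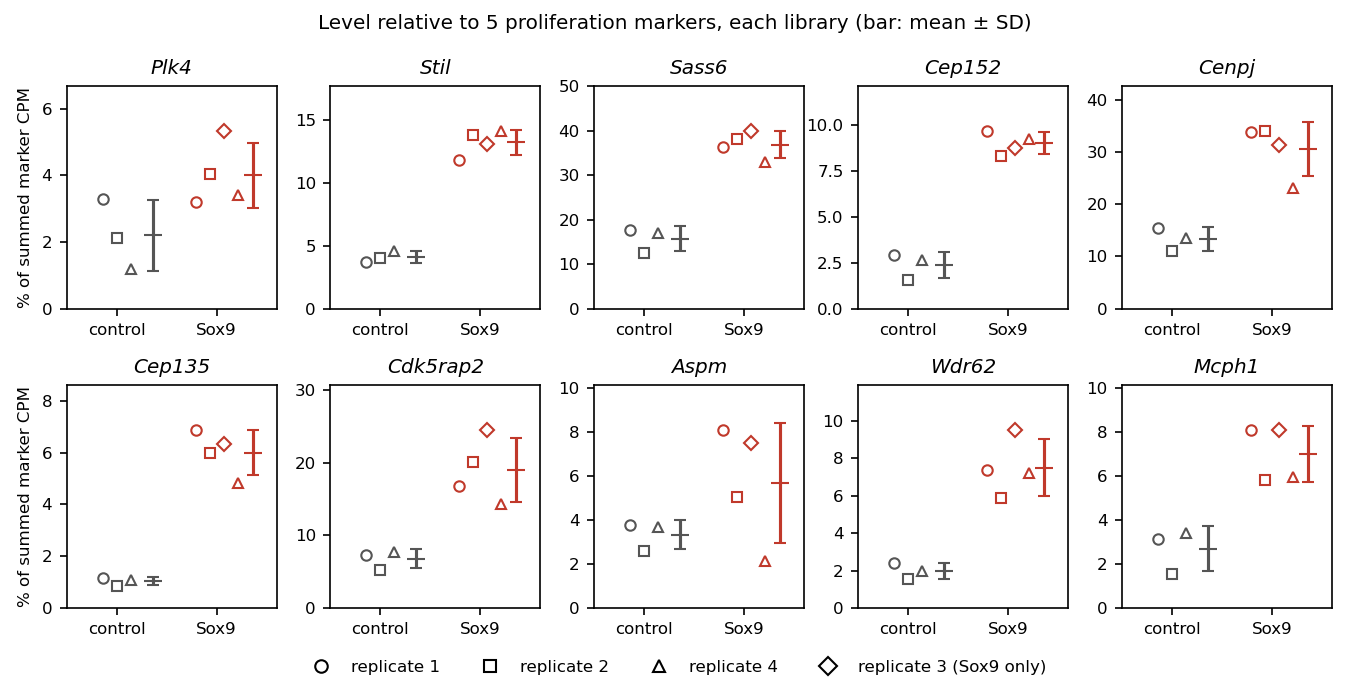
Level of each gene as a percentage of the summed CPM of *Mki67*, *Top2a*, *Pcna*, *Mcm2* and *Ccna2* in the same library (symbols by replicate number, bars mean and SD). Every panel except *Plk4* and *Aspm* shows the libraries labelled Sox9 above all controls.

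The mean of their log2 CPM, each centred on its own average, ran from 0.12 in control replicate 2 to -0.21 in replicate 4 of the libraries labelled Sox9, with the other 5 libraries between -0.063 and 0.082. It averages genes that differ in both directions. Genes were ranked by the Euclidean distance of their centred profile from it over the 7 libraries. The nearest other genes were *Dcun1d2* (distance 0.0768), *Slc11a2*, *Tbc1d23*, *Atxn1* and *Pak2* (distance 0.130), with log2 fold changes between -0.10 and -0.071. The 10 genes themselves lay at distances from 0.378 for *Cdk5rap2* to 1.61 for *Aspm*. By nearness to this mean among the 16522 tested genes, *Cdk5rap2* ranked 832, *Sass6* 1226, *Cenpj* 2557, *Mcph1* 4347, *Wdr62* 5206, *Stil* 5792, *Cep152* 6308, *Plk4* 9905, *Cep135* 10021 and *Aspm* 11096. The part of counting noise in these distances was not tested.

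Over 19 other settings, 7 of which leave out 1 library each, *Aspm*, *Plk4*, *Sass6* and *Cenpj* kept a negative and *Cep135*, *Cep152* and *Wdr62* a positive log2 fold change in each. *Cdk5rap2*, *Mcph1* and *Stil* changed sign in some, at values between -0.36 and 0.29. At an adjusted p under 0.05, *Cenpj* and *Sass6* would be lower and *Cep135* higher, where 10.8% of all genes were lower and 21.9% higher. With limma on log2(FPKM + 0.1) *Cep135* passed the threshold of 0.01 (log2 fold change 0.58 on that scale, adjusted p = 0.00984), where 0.486% of genes were lower and 6.45% higher. The range of *Cep135* was 0.58 to 1.07 and that of *Aspm* -1.03 to -0.51. The others ran from -1.03 to -0.36 for *Plk4*, -0.47 to -0.14 for *Sass6*, -0.49 to -0.17 for *Cenpj*, 0.26 to 0.55 for *Cep152* and 0.23 to 0.52 for *Wdr62*.

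**Figure D5:**
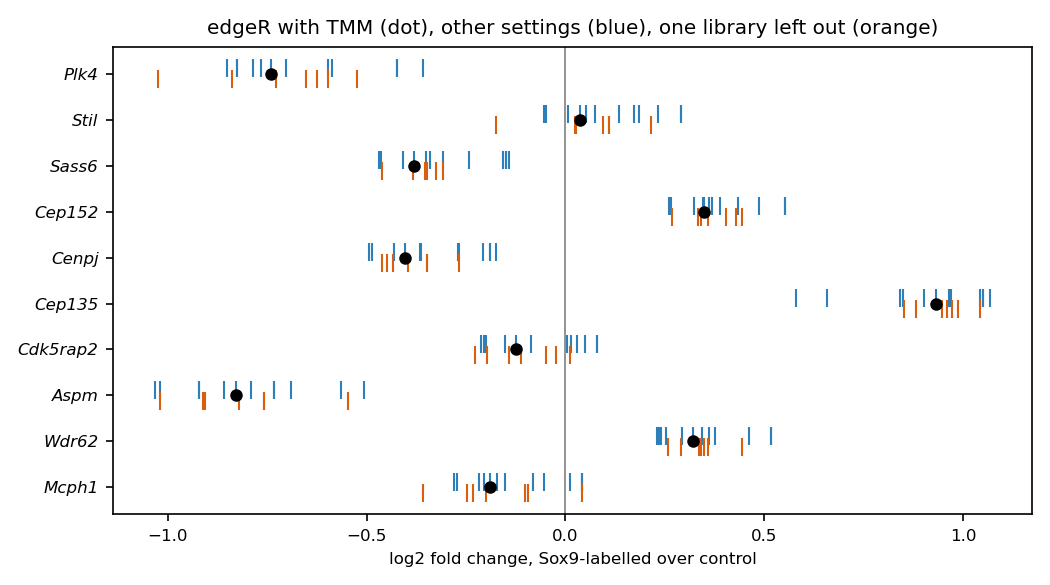
Log2 fold change of each gene with edgeR and TMM (dot), under 12 other settings (blue ticks) and with 1 library left out in turn (orange ticks). *Cep135*, *Cep152* and *Wdr62* stay right of 0, *Plk4*, *Sass6*, *Cenpj* and *Aspm* stay left, and the other 3 cross it.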

How the data were processed

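RNA-Seq of FACS-sorted High RFP cells (3 control and 4 Sox9-labelled libraries) was made with poly-dT priming and PCR amplification without molecular identifiers. Per the labels and methods, the authors trimmed adapters with cutadapt, aligned reads with STAR 2.5.2b to mm10 (GRCm38) and deposited raw counts per Ensembl gene. The counting program and its strand setting are not given in the sources used here. The authors also deposited FPKM values, in which the length used for the 10 genes was between 0.926 and 1.00 times the gene's whole span, and between 2.46 and 26.6 times its exonic length. Levels per length were therefore computed from the counts and the exonic length. Whether the counts include reads from introns is not given in the sources used here, and the order of levels depends on the length used. In the deposited FPKM, control libraries had 0.593, 0.607 and 0.266 for *Plk4* against 0.263, 0.450 and 0.409 for *Stil*. *Mcph1* had 0.035 to 0.063 there, against 0.061 to 0.071 for *Cep135*.

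Symbols and coordinates came from GENCODE vM21 (GRCm38), which matched 36345 of 38124 genes. Counts were scaled by TMM, filtered with filterByExpr and tested with edgeR 4.0.16 in R 4.3.3 (limma 3.58.1 and DESeq2 1.42.0 for alternatives). Groups and replicate numbers were taken from the sample titles, with no covariate. Standard errors (SE) were derived from the log2 fold change and its F statistic. The script was tested on simulated data. The 10 genes and the other gene lists were chosen with earlier results of these data known. Named were all 10 genes, the 3 smallest p-values of each pathway list, the proliferation markers and the 5 nearest profiles, and, chosen after their values were seen, the other genes named from a list, including *Ncapg2* and *Ncaph2*, and the genes named for overlapping one of the 10. The motifs, chosen the same way as the lists, were searched in RefSeq promoters. Plots were drawn with matplotlib 3.10.9 in Python 3.11.15.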

Additional observations from a re-analysis of the deposited data

How the results depend on the processing

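With edgeR and TMM, 0 of the 10 genes were called in either direction, and this held with each library left out in turn (0 to 0 lower, 0 to 0 higher), with DESeq2's size factors, cyclic loess and limma-trend, protein-coding genes only and at least 10 counts in every library. Over the 15 settings with 0 calls among the 10 genes, 0.0477 to 3.84% of all genes were called lower and 0.774 to 11.3% higher. The count lower became 1 with DESeq2 (*Sass6*) and 1 with no filter (*Aspm*). With an adjusted p under 0.05 it became 2 lower (*Cenpj* and *Sass6*; 10.8% of all genes) and 1 higher (*Cep135*; 21.9%), and with limma on log2(FPKM + 0.1) it was 1 higher (*Cep135*, adjusted p = 0.00984; 6.45%). Of the 118 other listed genes, 22 were lower. This became 32 with DESeq2, 25 with its size factors, 35 with no filter, 41 at an adjusted p under 0.05, 12 with cyclic loess and limma-trend, 12 with at least 10 counts in every library, 7 with limma on log2(FPKM + 0.01), 7 with a pseudocount of 0.1 and 0 without a filter on FPKM, and lay between 13 and 23 with a library left out (13 without control replicate 2, the lowest). The count higher was 1 in each, except 2 at an adjusted p under 0.05. The cause of these shifts was not tested.

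Signs turned for 3 genes, at adjusted p-values of 0.555 or more. *Cdk5rap2* had a log2 fold change of 0.030 with cyclic loess and limma-trend, 0.014 with at least 10 counts in every library, 0.079, 0.050 and 0.079 with the FPKM settings, and -0.23 to 0.011 with a library left out. *Mcph1* had 0.042, 0.012 and 0.042 with the FPKM settings and -0.36 to 0.042 with a library left out. *Stil* had -0.050 with DESeq2, -0.055 with no filter and -0.18 to 0.22 with a library left out. The median of all genes shifted too, by -0.082 with DESeq2, -0.087 with no filter, 0.14 with at least 10 counts in every library and 0.16 to 0.21 with FPKM. The values above for *Cdk5rap2* with at least 10 counts and with FPKM, for *Mcph1* with FPKM and for *Stil* with DESeq2 and with no filter are smaller in size than the shift of their setting, and relative to it they keep the sign they have with edgeR and TMM. Relative to the shift, *Cep135* lay between 0.42 and 0.99 over all settings.

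Replicate numbers are shared by the groups, but the deviations of same-numbered libraries correlated between -0.015 and 0.091 by titles and between -0.041 and 0.13 by descriptions, and 1 of 3 controls was closest to its own number in either numbering. With 3 pairs, this check shows no pairing of the libraries by number and cannot exclude one. With the number as a replicate block 0 of the 10 genes were called, 13 (titles) and 15 (descriptions) of the other genes were lower, and *Cdk5rap2* was at 0.0052 in the block by descriptions. Of the 10 genes, *Aspm* had the fewest counts in the shallowest library (15), and standard errors cover no difference between reads and molecules.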
